A study of Mus musculus with 3 samples.

Results

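Pleiotrophin (*Ptn*) and midkine (*Mdk*) and 3 of their cell surface receptors, the receptor phosphatase *Ptprz1* and the syndecans *Sdc3* and *Sdc4*, were followed through the cell types of the developing mouse prostate. These 5 genes were taken by name as 5 of the 9781 gene rows used, and earlier results of these data were known when they were chosen. The data were droplet single cell RNA-seq of 3 mouse tissues labelled normal, with 1 library each. They were the male urogenital sinus of E18.5 embryos (UGS, from which the prostate buds) and the prostates of P14 and P35 mice. Strain and genotype are not given in the labels, and the sequence of a membrane GFP reporter (mGFP) was part of the genome that the study aligned to. All 14573 cells sat in a single table in which barcodes end in 1, 2 or 3, which defines barcode sets 1 to 3. Which tissue an ending stands for is given in no label, so each value is given per barcode set, no age was compared with another, and there were no replicates.

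Pleiotrophin and midkine are the members of a small family of secreted, heparin-binding growth factors, best known from embryonic mesenchyme and the developing nervous system. *Ptprz1* encodes a transmembrane tyrosine phosphatase whose extracellular part carries chondroitin sulfate chains, and binding of pleiotrophin reduces its phosphatase activity. Syndecans are transmembrane proteoglycans that hold the ligands through heparan sulfate chains: *Sdc3* (N-syndecan) is best known from nervous tissue and *Sdc4* from focal adhesions.

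Median depth was 19357 unique molecular identifiers (UMIs, counts of captured mRNA molecules) per cell among the 766 cells of set 1, against 1738 among 5350 cells of set 2 and 1788 among 8457 cells of set 3. Of these, 97 cells of set 3 with fewer than 200 genes were left out. 1 barcode was shared by sets 1 and 2 and 13 by sets 2 and 3. Cells were clustered without the 5 genes, and clusters were named from marker genes. A name ending in "-like" means that a cluster was named from marker genes of that class, among them 9 of 9 glial, 10 of 10 endothelial and 12 of 12 leukocyte markers at hand. Some names are less clean. The smooth muscle-like cluster also carried 5 fibroblast markers, and the glia-like cluster 2. The pericyte-like cluster carried 6 fibroblast and 5 of 6 smooth muscle markers beside 5 of 6 pericyte markers. The mitotic cluster carried 10 fibroblast and 6 smooth muscle markers. A cluster led by *Myod1*, *Msc*, *Myf5* and *Ttn* stayed unnamed, and it carried 8 of 12 epithelium and 6 of 6 smooth muscle markers. Fibroblast-like cells numbered 374, 1664 and 2635 in sets 1 to 3, epithelium-like cells 147, 1443 and 2781, and glia-like cells 21, 190 and 237. Epithelium-like cells of set 1 were mostly of the clusters outside the basal-type ones (125 of 147), whereas basal-type cells, 22 in set 1, made up 977 and 1719 of those in sets 2 and 3. Median depth also differed between classes. It was 15696.5, 1251.5 and 1326 UMIs in fibroblast-like, 41580, 4079 and 3558 in epithelium-like and 21278, 1060 and 854 in glia-like cells.

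The highest *Ptn* levels were in fibroblast-like cells and in the mitotic cluster. *Ptn* (chr6:36714924-36810179 in GRCm38.p6, the assembly of mm10) is given, like all rates below, as counts per 1000000 UMIs (CPM), with an exact 95% Poisson interval for counting error only. Fibroblast-like cells held *Ptn* at 2044 CPM in set 1 (95% interval 2011 to 2077), 2184 in set 2 (2128 to 2242) and 1524 in set 3 (1485 to 1564). In epithelium-like cells it was 62.5 (56.8 to 68.5), 159.7 (151.2 to 168.5) and 78.1 (74.0 to 82.4) CPM. The fibroblast-like rate was thus 32.7-fold, 13.7-fold and 19.5-fold the epithelium-like rate, or 5.03 (4.90 to 5.17), 3.77 (3.69 to 3.86) and 4.29 (4.2 to 4.37) on the log2 scale. These intervals come from the split of the UMIs between both classes. Among cells with at least 1000 genes the log2 ratio was 5.14 in set 1, 2.99 in set 2 and 2.76 in set 3. In set 1 it was 4.15 (3.42 to 5) with every cell thinned to 900 UMIs and 4.25 (4.05 to 4.46) with cells classed singly from their marker UMIs.

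The 250 bases upstream of the *Ptn* start and of the *Sdc4* start are shown because these genes had opposite orders between fibroblast-like and epithelium-like cells in every barcode set. Capitals mark TATAA and GGGCGG motifs found on either strand; in *Ptn* the stretch TTATAA holds TATAA on both strands. The sequences are from RefSeq for GRCm38.p6, on the minus strand of chr6:36810180-36810429 and chr2:164443189-164443438.
Ptn: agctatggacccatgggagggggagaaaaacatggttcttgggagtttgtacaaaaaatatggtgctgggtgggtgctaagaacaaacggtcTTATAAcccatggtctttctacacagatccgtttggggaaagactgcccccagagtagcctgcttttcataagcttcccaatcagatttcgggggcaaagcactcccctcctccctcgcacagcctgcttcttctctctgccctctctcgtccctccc
Sdc4: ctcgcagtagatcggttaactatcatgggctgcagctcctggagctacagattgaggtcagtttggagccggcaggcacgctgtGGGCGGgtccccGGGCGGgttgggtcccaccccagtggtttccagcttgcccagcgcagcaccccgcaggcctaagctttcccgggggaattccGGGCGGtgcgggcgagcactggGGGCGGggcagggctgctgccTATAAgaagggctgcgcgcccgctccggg
The *Ptn* window has 5 CpG dinucleotides, 2 TATAA matches and 0 GGGCGG, while that of *Sdc4* has 19 CpG, 1 TATAA and 4 GGGCGG. The window of *Sdc3*, which was higher in fibroblast-like than in epithelium-like cells like *Ptn*, has 32 CpG, 0 TATAA and 3 GGGCGG. Over 32851 promoter windows of 250 bases the median was 6 CpG, 22.8% held TATAA and 32.7% held GGGCGG on either strand. A match describes the letters only and is not a binding site.

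The mitotic cluster, which carried fibroblast markers, held 1467, 1662 and 1797 CPM, below the fibroblast-like rate in sets 1 and 2 and above it in set 3. Smooth muscle-like cells held 899.8, 865.8 and 969.3 CPM, and glia-like cells 586.1, 774.2 and 989.4. These latter 2 classes differed beyond counting error in set 1 only. Neuron-like cells followed at 442.2, 637.2 and 359.2 CPM, and the unnamed cluster at 250.8, 585.5 and 542.1. At the low end stood endothelium-like cells at 42.7, 214.9 and 157.1 CPM and leukocyte-like cells at 8.34, 73.2 and 70.2 CPM, the latter from 4, 6 and 29 UMIs. Pericyte-like cells held 243.2, 321.5 and 86.2 CPM, and in set 3 their interval overlapped those of epithelium-like and leukocyte-like cells.

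**Figure D1:**
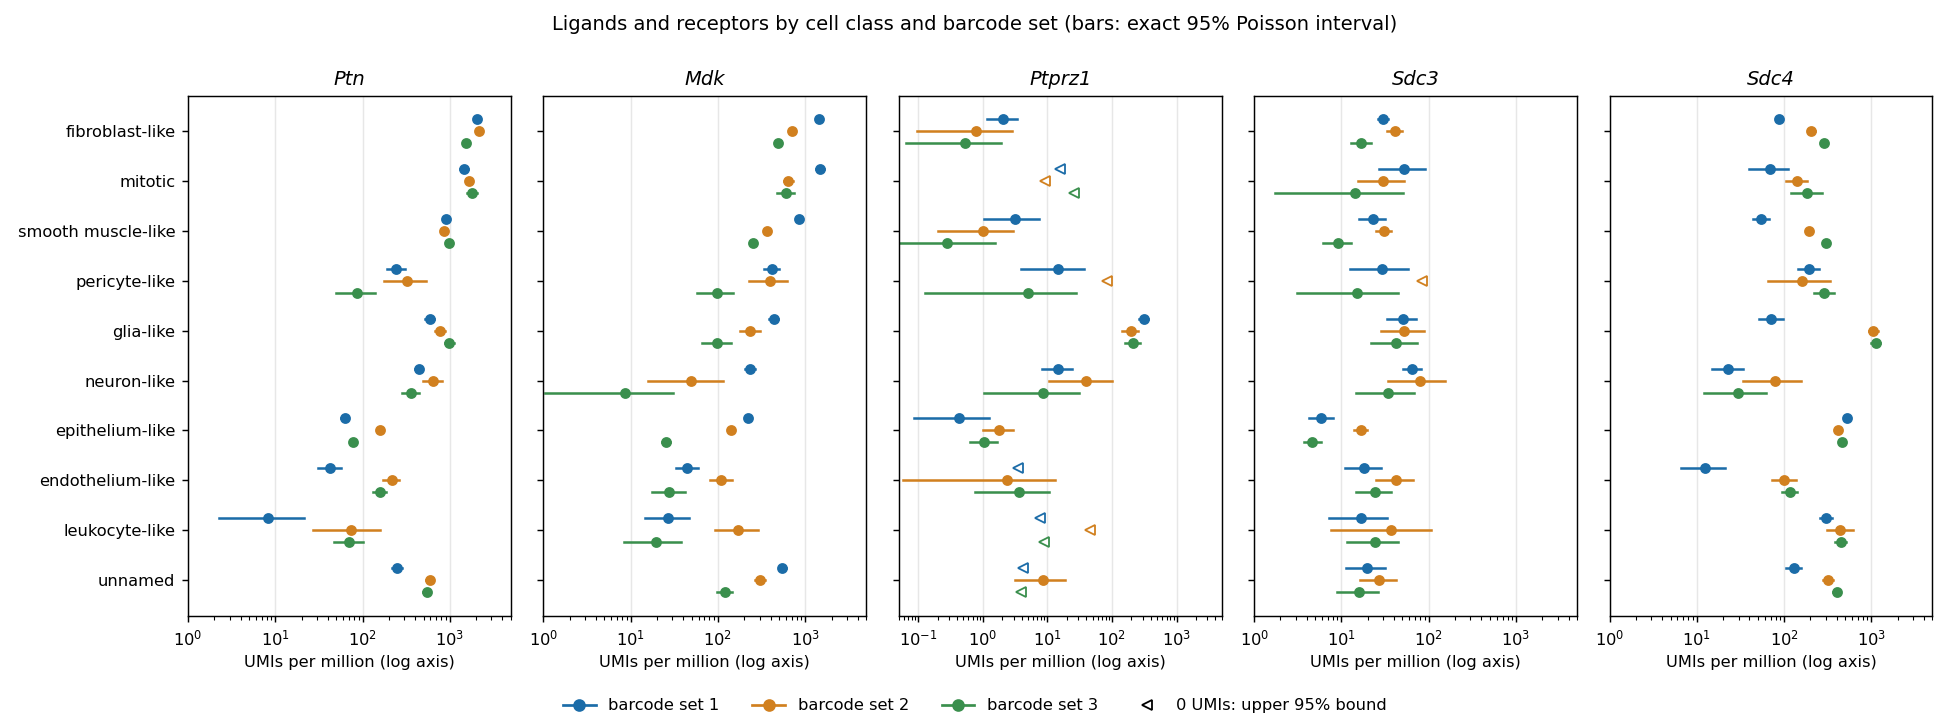
Rates of *Ptn*, *Mdk*, *Ptprz1*, *Sdc3* and *Sdc4* (x axis, CPM, log axis) in each cell class (y axis), with 1 point per barcode set and exact 95% Poisson intervals. *Ptn* lies highest in fibroblast-like and mitotic cells, *Ptprz1* stands out in glia-like cells in all 3 sets (310.4, 194.5 and 210.5), and *Sdc4* in glia-like cells lies at 71.1 in set 1 and at 1047 and 1119 in sets 2 and 3.

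*Ptn* was also detected in most fibroblast-like cells. At least 1 *Ptn* UMI was found in 94.9%, 72.4% and 58.8% of them, and after each cell was thinned to 900 UMIs in 66.7% (exact 95% binomial interval 61.6 to 71.4), 65.8% (63.3 to 68.2) and 51.7% (49.6 to 53.7). Leukocyte-like cells, taken as cells that should lack the gene, had a *Ptn* UMI in 10.5%, 12% and 7.34% unthinned, at median depths of 10313, 2027 and 2003 UMIs, and in 5.26%, 0% and 3.57% after thinning. The 0 rests on 23 cells, with an exact upper bound of 14.8%. The thinned fibroblast-like shares therefore lay far above the leukocyte-like ones in every set. Epithelium-like cells had thinned shares of 6.85% (3.33 to 12.2), 12.2% (10.6 to 14.01) and 7.36% (6.41 to 8.41), and each of these intervals overlaps the leukocyte-like one of its set. By unthinned rate, epithelium-like cells exceeded leukocyte-like cells beyond counting error in set 1 only. The log2 ratio to them was 2.90 (1.54 to 4.79), 1.13 (0.00 to 2.57) and 0.15 (-0.37 to 0.74). Thinned to 900 UMIs per cell, epithelium-like cells held 114.2 (63.9 to 188.3), 161.2 (140.0 to 184.6) and 94.8 (83.0 to 107.7) CPM. Leukocyte-like cells then held 58.5 (7.08 to 211.2), 0 (upper bound 178.2) and 39.7 (14.6 to 86.4) CPM, and these intervals overlap in every set.

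Free RNA from broken fibroblasts can enter every droplet, so the epithelium-like and glia-like rates were set beside those of 4 fibroblast genes, each as a percentage of its own fibroblast-like rate. The 4 genes are the collagens *Col1a2* and *Col3a1* and the small proteoglycans decorin (*Dcn*) and lumican (*Lum*). In epithelium-like cells *Ptn* stood at 3.06%, 7.31% and 5.13%, while the 4 genes ranged from 0.685% to 1.74% in set 1, from 3.78% to 22.0% in set 2 and from 0.787% to 10.8% in set 3. *Ptn* was above all 4 in set 1 only, with *Dcn* higher in sets 2 and 3. In glia-like cells *Ptn* stood at 28.7%, 35.5% and 64.9%, against 3.18% to 16.0%, 10.1% to 59.4% and 11.1% to 48.0% for the 4 genes. *Col3a1* and *Col1a2* exceeded *Ptn* there in set 2, and none of the 4 did in sets 1 and 3. The part of free RNA in these low rates was not tested.

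**Figure D2:**
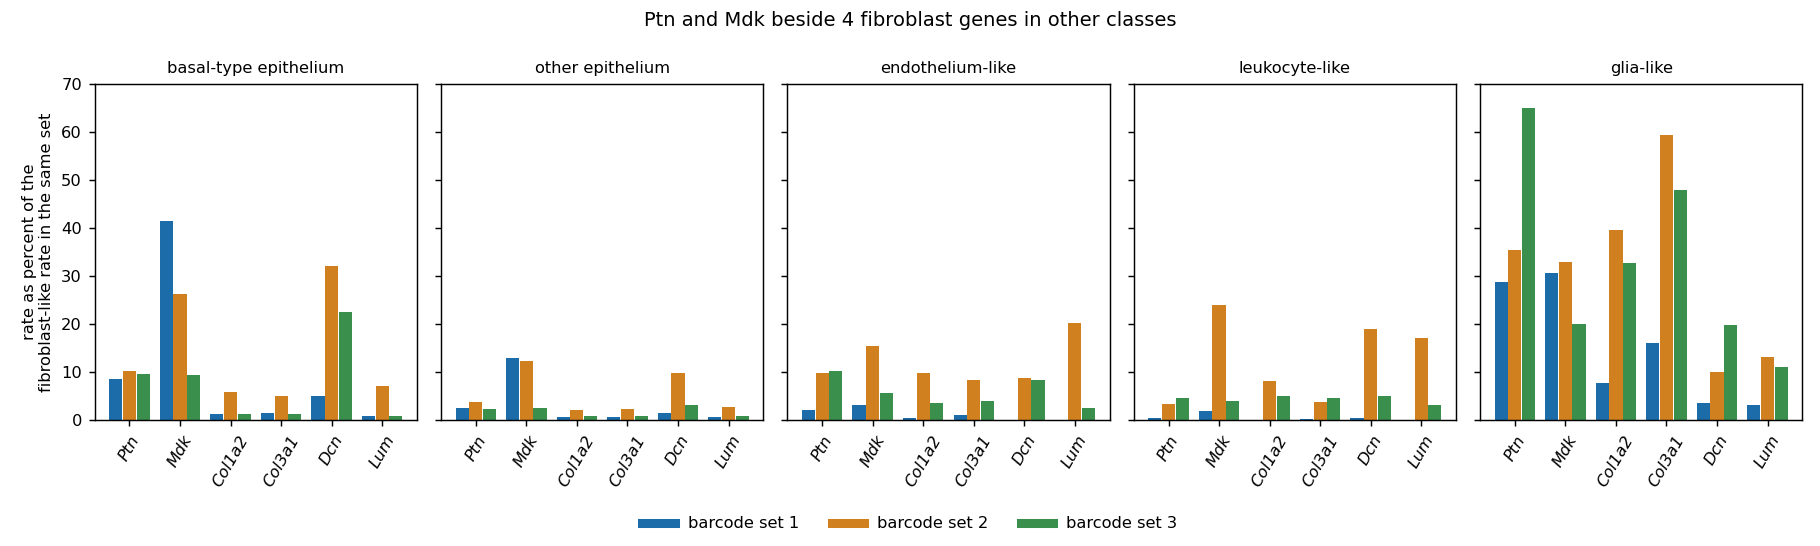
Rates of *Ptn*, *Mdk* and the fibroblast genes *Col1a2*, *Col3a1*, *Dcn* and *Lum* in other classes as a percentage of the fibroblast-like rate of the same barcode set (y axis, percent), with 1 bar per set. In glia-like cells *Ptn* reaches 28.7%, 35.5% and 64.9%. In basal-type epithelium *Mdk* (41.4%, 26.3% and 9.34%) lies above both collagens in all 3 sets and below *Dcn* (32.2% and 22.6%) in sets 2 and 3.

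Within the epithelium, *Ptn* was higher in the basal-type clusters, which were led by *Serpinb5*, *Sfn* and *Lgals7*, than in the other clusters. Basal-type cells held 173.4 (143.9 to 207.2), 223.1 (209.6 to 237.2) and 145.5 (136.5 to 154.9) CPM, against 50.4, 83.0 and 34.4 in the other epithelium-like cells. The log2 ratio was 1.78 (1.47 to 2.09), 1.43 (1.24 to 1.61) and 2.08 (1.90 to 2.26). As a percentage of the fibroblast-like rate, basal-type cells were at 8.48%, 10.2% and 9.55%. The fibroblast gene *Dcn* moved the same way, at 4.97%, 32.2% and 22.6% in basal-type and 1.39%, 9.76% and 3.09% in other epithelium-like cells, and was above *Ptn* in basal-type cells of sets 2 and 3. *Col1a2* and *Col3a1* were also higher in basal-type cells in each set, at 1.25% to 5.77% against 0.603% to 2.31%, and *Lum* in sets 1 and 2 but not in set 3 (0.780% against 0.791%). Basal-type cells were the shallower ones, with median depths of 31249.5, 3473 and 2693 UMIs against 46627, 6845 and 6881.5, and the part of depth and of fibroblast RNA in this difference was not tested.

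The fibroblast-like cells formed a *Tcf21* and *Col15a1* type, led by *Lamc3*, *Fgf21* and *Mmp2*, and a *Dpt* and *Lum* type, led by *Dpt*, *Ptx3* and *Sult1e1*. These names are not exclusive, since the *Dpt* and *Lum* type also carried both *Tcf21* and *Col15a1*, and the other type carried 1 of the 2 markers *Dpt* and *Lum*. In sets 2 and 3 *Ptn* was higher in the *Dpt* and *Lum* type, at 2952 and 1892 CPM against 1260 and 1224. In set 1 it was 1902 CPM in the *Dpt* and *Lum* type and 2153 in the *Tcf21* and *Col15a1* type. The log2 ratio of the *Tcf21* and *Col15a1* type over the other was 0.18 (0.13 to 0.23) in set 1, -1.23 (-1.32 to -1.14) in set 2 and -0.63 (-0.70 to -0.55) in set 3. When every cell was thinned to 900 UMIs, so that each counts equally, the ratio became -0.04 (-0.27 to 0.20), -1.31 and -0.72. The types therefore could not be told apart in set 1 after thinning. Thinning also cut the *Ptn* UMIs of the 2 types there from 8799 and 5970 to 452 and 227, and the thinned interval still holds 0.18. In set 1 the 25 deepest of the 252 cells of the *Tcf21* and *Col15a1* type held 32.1% of its *Ptn* UMIs and 24.98% of all its UMIs. This order also turned in sets 2 and 3 under other ways of naming the cells: -0.63 in set 3 became 0.30 among cells with at least 1000 genes and 0.13 when cells were classed singly from their marker UMIs, and without integration of the sets the ratios were 1.25 in set 2 and 0.34 (0.05 to 0.61) in set 3. Without integration the types also had other sizes, 1490 against 229 cells in set 2 (804 against 860 with integration) and 35 against 2653 in set 3 (1547 against 1088 with integration).

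At a finer resolution of 1.0 the *Dpt* and *Lum* type split into clusters that differed in *Ptn* in each set. These pairs of clusters were chosen after their values were seen. A cluster led by *Sult1e1*, *Tnfaip6* and *Ugdh*, in which *Ptn* itself was among the 10 leading genes although it had no part in the clustering, held 3051, 3495 and 2466 CPM. Its neighbour, led by *Ptx3*, *Eln* and *Dpt*, held 1401, 856.5 and 515.8 CPM. The log2 ratio between them was 1.12 (1.05 to 1.20), 2.03 (1.84 to 2.22) and 2.26 (2.06 to 2.46). The former cluster made up 44 of set 1 cells, 705 of set 2 and 763 of set 3, and the latter 76, 137 and 237. Within the *Tcf21* and *Col15a1* type the corresponding difference was smaller, with log2 ratios of 0.59, 0.32 and 0.44 between its 2 finer clusters, of 243, 309 and 832 cells and of 6, 496 and 796 cells, so that the value in set 1 rests on 6 cells. Smooth muscle-like cells were not uniform in their markers. A finer cluster of 22, 522 and 1062 cells was led by the globin genes *Hbb-bt* and *Hbb-bs*. Its 10 leading genes also held the striated muscle genes *Myog*, *Actc1*, *Mylpf*, *Tnnt1* and *Tnni1*, beside *Des*, *Myl9* and *Tpm2*. It held *Ptn* at 334.0, 794.8 and 747.1 CPM. A finer cluster led by *Tnnc2*, *Actg2* and *Tnnt2* held 461.2, 548.0 and 870.2 CPM. One led by *Car3*, *Lmcd1* and *Mgll* held 1261, 1226 and 1465 CPM. The smooth muscle-like *Ptn* rates above pool these clusters.

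*Mdk* (chr2:91929805-91932297) had its highest rates in the same classes as *Ptn*, although its level differed more between the sets. Fibroblast-like cells held it at 1425 CPM (1398 to 1453), 714.1 (681.8 to 747.6) and 492.4 (470.3 to 515.3), and the mitotic cluster at 1480, 640.7 and 594.3. Those classes did not differ beyond counting error in any set. Smooth muscle-like cells held 842.2, 361.5 and 250.3 CPM, pericyte-like cells 413.8, 390.4 and 96.3, and glia-like cells 435.3, 235.6 and 98.2. Neuron-like cells held 233.4 CPM in set 1, and 49.0 and 8.55 in sets 2 and 3 from 5 and 2 UMIs. Endothelium-like cells were low throughout, at 44.6, 109.8 and 27.8 CPM.

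The epithelium-like rate of *Mdk* was 223.7 (212.8 to 234.9), 142.9 (134.9 to 151.2) and 25.5 (23.1 to 28.0) CPM. Fibroblast-like cells were 6.37-fold, 4.999-fold and 19.4-fold higher, with log2 ratios of 2.67, 2.32 and 4.27. Among cells with at least 1000 genes these log2 values were 2.82, 1.92 and 2.36, so that set 3 did not keep the largest. In leukocyte-like cells the rate was 27.1, 170.8 and 19.4 CPM from 13, 14 and 8 UMIs, so that in sets 2 and 3 the epithelium-like rate did not exceed the leukocyte-like one beyond counting error. As a percentage of the fibroblast-like rate, *Mdk* in epithelium-like cells stood at 15.7%, 20.01% and 5.17%, and in basal-type cells at 41.4%, 26.3% and 9.34%. Basal-type cells held 590.5, 187.7 and 46.0 CPM against 183.9, 88.6 and 12.1 in the other epithelium-like cells, a log2 difference of 1.68 (1.52 to 1.85), 1.08 (0.90 to 1.27) and 1.93 (1.62 to 2.24). Both ligands were therefore higher in basal-type than in other epithelium-like cells in every set, and the depths and fibroblast genes given for *Ptn* apply to *Mdk* too.

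Between the fibroblast types *Mdk* kept no single order. The *Tcf21* and *Col15a1* type held 1642, 642.7 and 542.0 CPM and the *Dpt* and *Lum* type 1142, 773.4 and 431.5. On the log2 scale the former differed from the latter by 0.52 (0.47 to 0.58), -0.27 (-0.40 to -0.13) and 0.33 (0.19 to 0.47), and after thinning 0.04, -0.28 and 0.43. The ratio in set 2 became 0.26 without integration (1490 against 229 cells), and that in set 3 became -0.79 among cells with at least 1000 genes. Among the finer *Dpt* and *Lum* type clusters, *Mdk* was higher in the *Sult1e1* cluster by 0.28 (0.17 to 0.38), 0.53 (0.29 to 0.79) and 1.03 (0.73 to 1.33) on the log2 scale, less than the ratios of *Ptn*. *Mdk* was found after thinning in 74.2%, 45.0% and 33.5% of fibroblast-like cells and in 7.89%, 8.70% and 1.19% of leukocyte-like cells.

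**Figure D3:**
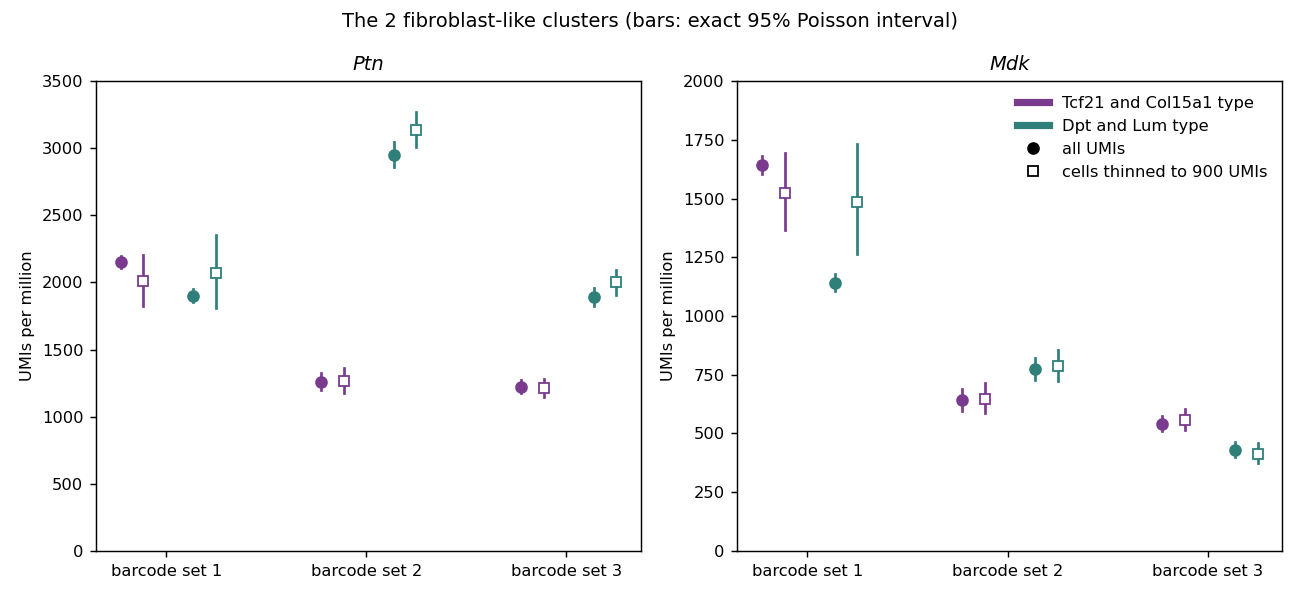
*Ptn* (left) and *Mdk* (right) in the *Tcf21* and *Col15a1* type and the *Dpt* and *Lum* type of fibroblast-like cells by barcode set (y axis, CPM; error bars, exact 95% Poisson intervals). *Ptn* is higher in the *Dpt* and *Lum* type in sets 2 and 3 (2952 and 1892 against 1260 and 1224) and slightly lower in set 1 (1902 against 2153).

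*Ptprz1* (chr6:22875315-23052916) was concentrated in glia-like cells. Glia-like cells held 310.4 CPM (266.6 to 359.4) in set 1, 194.5 (145.2 to 255.0) in set 2 and 210.5 (160.6 to 271.0) in set 3, from 179, 52 and 60 UMIs. These cells made up a small part of each set, yet held 80.6%, 62.7% and 69.0% of all its UMIs. *Ptprz1* was among the 10 leading genes of the glia-like cluster although it had no part in the clustering. Neuron-like cells followed at 14.7, 39.2 and 8.55 CPM from 16, 4 and 2 UMIs, and no interval of another class reached up to that of glia-like cells in any set.

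Fibroblast-like cells, the class with the highest *Ptn* in sets 1 and 2, held 15, 2 and 2 *Ptprz1* UMIs, or 2.08, 0.779 and 0.529 CPM. The glia-like rate was 149.5-fold higher in set 1, a log2 ratio of 7.22 (6.46 to 8.09). With the fibroblast-like sums of 2 UMIs in sets 2 and 3 set to 3, the log2 ratios there were 7.38 (5.75 to 9.70) and 8.05 (6.44 to 10.37). After thinning the ratios of sets 1 to 3 were 5.37 (3.24 to 7.95), 6.76 (5.07 to 9.12) and 7.11 (5.35 to 9.50), and with cells classed singly 8.29 (6.72 to 10.58), 6.09 (4.47 to 8.41) and 6.45 (4.83 to 8.78), each with a fibroblast-like sum set to 3 UMIs. Epithelium-like cells held 3, 15 and 18 UMIs, and leukocyte-like and mitotic cells 0. A *Ptprz1* UMI was found in 100% of the 21 glia-like cells of set 1, 21.1% of the 190 in set 2 and 20.7% of the 237 in set 3. At 900 UMIs per cell those shares were 28.6% (11.3 to 52.2), 17.5% (11.3 to 25.2) and 15.6% (9.36 to 23.8), whose intervals overlap. None of the 38, 25 and 177 leukocyte-like cells had a *Ptprz1* UMI, with exact upper bounds of 9.25%, 13.7% and 2.06% on the share of cells with a UMI.

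*Sdc3* (chr4:130792537-130826318) was low in every class, and either neuron-like or glia-like cells held the highest rate in each set. Neuron-like cells held 65.0 (50.8 to 82.0), 78.4 (33.9 to 154.5) and 34.2 (14.8 to 67.4) CPM, and glia-like cells 50.3 (33.7 to 72.2), 52.4 (28.6 to 87.9) and 42.1 (21.8 to 73.5). Fibroblast-like cells held 30.03, 40.9 and 16.9 CPM. Epithelium-like cells were lowest in sets 1 and 3 and above only the pericyte-like cells, with 0 UMIs, in set 2, at 5.89, 16.6 and 4.64 CPM. The log2 ratio of glia-like over fibroblast-like cells was 0.74 (0.13 to 1.31), 0.36 (-0.56 to 1.17) and 1.32 (0.29 to 2.22), so that in set 2 a difference was not detectable at 14 glia-like UMIs. With cells classed singly the ratio was 0.60 (-0.00 to 1.17), -0.74 (-1.57 to 0.01) and 0.47 (-0.49 to 1.35), and all 3 intervals reach 0. Thinned to 900 UMIs per cell it was 2.24 (0.19 to 3.89), 0.37 (-1.14 to 1.58) and 2.33 (1 to 3.47). Fibroblast-like over epithelium-like cells gave 2.35, 1.30 and 1.87. Neuron-like and glia-like cells could not be told apart, since glia-like over neuron-like gave -0.37 (-1.05 to 0.27), -0.58 (-1.94 to 0.88) and 0.30 (-1.11 to 1.80).

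*Sdc4* (chr2:164424247-164443188) was higher in the epithelium-like than the fibroblast-like class in every set, the reverse of *Ptn*, *Mdk* and *Sdc3*. Epithelium-like cells held 520.6 (504.0 to 537.7), 416.2 (402.5 to 430.3) and 461.1 (450.9 to 471.4) CPM, against 87.6 (80.9 to 94.7), 204.5 (187.4 to 222.8) and 286.0 (269.2 to 303.5) in fibroblast-like cells. The epithelium-like rate was thus 5.94-fold, 2.04-fold and 1.61-fold higher. It differed little between basal-type and other cells, by a log2 ratio of -0.17 (-0.34 to -0.01), 0.19 (0.09 to 0.29) and 0.08 (0.02 to 0.15). Leukocyte-like cells held 304.4, 439.1 and 447.7 CPM, within counting error of the epithelium-like rate in sets 2 and 3. Endothelium-like cells were among the lowest, at 12.4, 100.4 and 116.0 CPM.

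Glia-like cells held *Sdc4* at 71.1 CPM (51.0 to 96.5) in set 1, from 41 UMIs in 21 cells, but at 1047 (928.1 to 1177) and 1119 (999.7 to 1249) in sets 2 and 3. In those sets they were 2.52-fold and 2.43-fold above the epithelium-like rate, and in set 1 7.32-fold below it. After thinning, a *Sdc4* UMI was found in 1 of 21 glia-like cells of set 1 (4.76%, 0.121 to 23.8) and in 62.7% (53.6 to 71.2) and 56.0% (46.1 to 65.5) of those of sets 2 and 3. *Cldn4*, a tight junction gene of epithelium, stood at 41.6, 71.1 and 214.0 CPM in these cells, against 1721, 1069 and 1360 in epithelium-like cells. In set 1 *Sdc4* was also lower in fibroblast-like, smooth muscle-like (54.4 against 192.5 and 302.2) and endothelium-like cells, but not in epithelium-like cells (520.6 against 416.2 and 461.1) or below set 2 in pericyte-like cells (192.4, 160.8 and 288.9). Set 1 was the set of deep cells (median depth 19357 UMIs against 1738 and 1788). The part of depth, library and tissue cannot be told apart.

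**Figure D4:**
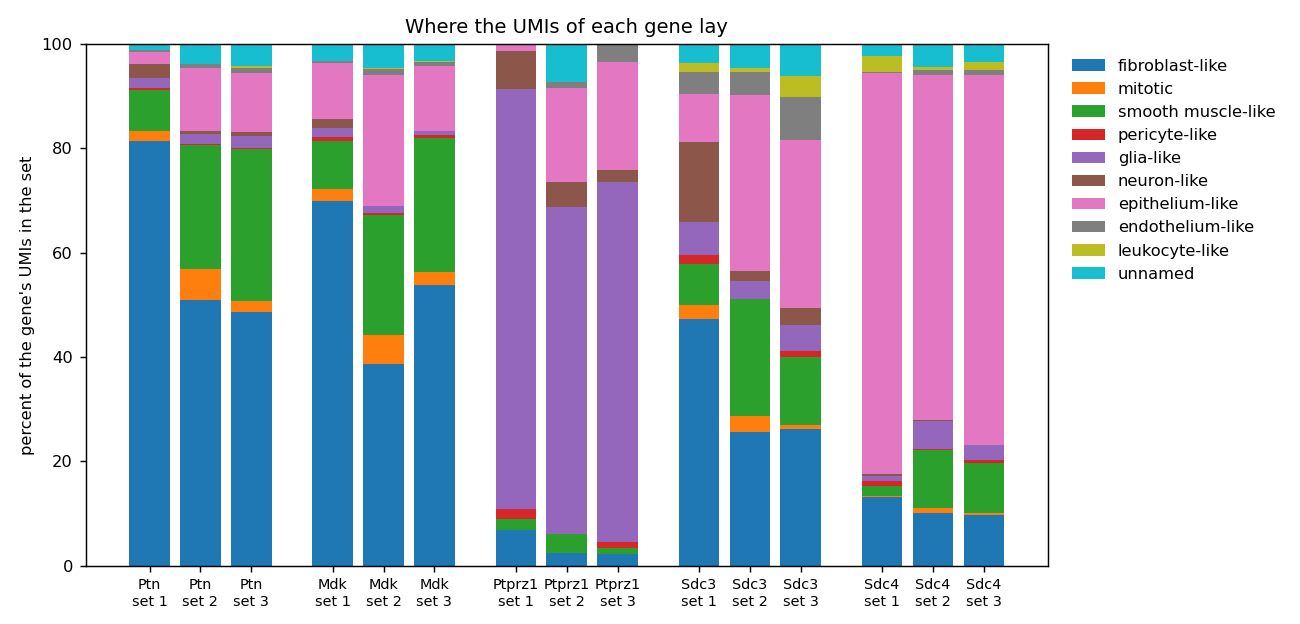
Share of the UMIs of each gene (y axis, percent of the gene's UMIs in a barcode set) that lay in each cell class, with 1 stacked bar per gene and barcode set. Fibroblast-like cells hold 81.4%, 50.9% and 48.7% of *Ptn*, glia-like cells 80.6%, 62.7% and 69.0% of *Ptprz1*, and epithelium-like cells 76.7%, 66.3% and 70.9% of *Sdc4*.

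Where the UMIs of a gene lay depends on cell numbers and depth as well as on the rate. Fibroblast-like cells held 81.4%, 50.9% and 48.7% of all *Ptn* UMIs, and smooth muscle-like cells 7.85%, 23.7% and 29.1%. For *Mdk* the fibroblast-like share was 69.9%, 38.8% and 53.8%. Epithelium-like cells held 76.7%, 66.3% and 70.9% of *Sdc4* UMIs despite their lower rate than glia-like cells in sets 2 and 3.

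Ligands and receptors were also counted in single cells, unthinned, where deeper cells yield more pairs. Both *Ptn* and *Mdk* were found in 94.4%, 45.3% and 27.9% of fibroblast-like cells. *Ptn* and *Ptprz1* were found together in 20 of 21, 25 of 190 and 27 of 237 glia-like cells, and in 12, 2 and 1 fibroblast-like cells. *Ptprz1* and *Sdc4* shared 14, 21 and 28 glia-like cells. In epithelium-like cells *Ptn* and *Sdc4* occurred together in 39.5%, 31.0% and 19.3%, where the low *Ptn* rates limit what these pairs can show.

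Counts of genes at least 4-fold apart, among genes with at least 20 UMIs over both classes, place these ratios against the table. In set 1, 14.1% of the genes tested were higher in fibroblast-like than in epithelium-like cells, and of the 4 members tested these were *Ptn*, *Mdk* and *Sdc3*. The share was 9.29% in set 2 and 11.6% in set 3, where *Ptn* and *Mdk* passed among 4 and 5 members. *Ptprz1* had too few UMIs for this comparison in sets 1 and 2. In the other direction 8.61% of genes were higher in epithelium-like cells in set 1, with *Sdc4* of the 4 members, and 6.37% and 8.44% in sets 2 and 3, with no member. Of all genes tested, 3.54% were higher in glia-like than in fibroblast-like cells in set 1, 3.61% in set 2 and 5.27% in set 3. *Ptprz1* was among them in each set and *Sdc4* in set 2, of 5 members tested each time. Those higher in fibroblast-like than in glia-like cells were 3.46%, 2.09% and 2.35% of genes, with *Mdk* in set 3 as the single member. The 4-fold line was met by *Ptn* and *Mdk* in all 3 sets against epithelium-like cells and by *Ptprz1* in all 3 sets in glia-like cells. *Sdc4* in glia-like cells of set 3 fell just short of the line at 3.91-fold.

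Other binding partners of the ligands had a row for 15 of 27 genes listed. Of the 10, 9 and 10 of them tested, 4, 3 and 4 were at least 4-fold higher in fibroblast-like than in epithelium-like cells, beside 14.1%, 9.29% and 11.6% of all genes tested, and 2 in each set were epithelium-higher, beside 8.61%, 6.37% and 8.44%. Glypican 3 (*Gpc3*), a lipid-anchored heparan sulfate proteoglycan, was fibroblast-higher in all 3 sets at 333.1, 276.6 and 141.9 CPM against 34.8, 51.4 and 6.11. The laminin-binding integrin *Itga6* (62.3, 355.2 and 333.3 CPM in epithelium-like cells against 5.54, 39.0 and 8.99) and the adhesion molecule *L1cam* were the epithelium-higher genes. The list's median log2 ratio of fibroblast-like over epithelium-like cells was 1.69, 1.30 and 1.14, beside 0.16, 0.03 and -0.19 over all genes tested. The endocytic receptor *Lrp1* held 93.3, 119.2 and 212.2 CPM in fibroblast-like cells, and nucleolin (*Ncl*) between 502.9 and 1263 CPM in fibroblast-like, epithelium-like and glia-like cells. *Ptprb*, the endothelial relative of *Ptprz1*, held 209.0, 123.8 and 251.3 CPM in endothelium-like cells and at most 8.67 in fibroblast-like, epithelium-like or glia-like cells.

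Of the 10, 9 and 10 partners tested, 2, 3 and 4 were at least 4-fold higher in glia-like than in fibroblast-like cells, beside 3.54%, 3.61% and 5.27% of all genes, and *Itga6* and *L1cam* were among them in all 3 sets. Tenascin C (*Tnc*), a matrix glycoprotein, was so in sets 2 and 3, at 538.6 and 164.9 CPM against 97.4 and 3.70, and *Itga4* in set 3. *Gpc3* in set 2 was the 1 partner at least 4-fold higher in fibroblast-like cells, beside 3.46%, 2.09% and 2.35% of all genes in sets 1 to 3. The list's median log2 ratio of glia-like over fibroblast-like cells was 0.29, -0.25 and -0.28, beside 0.12, 0.11 and 0.35 over all genes.

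Enzymes that build or trim heparan and chondroitin sulfate chains, the part of the receptors that holds the ligands, had a row for 23 of 34 genes. Of 19, 19 and 20 tested, 9, 5 and 6 were at least 4-fold higher in fibroblast-like than in epithelium-like cells, among them *Xylt1*, which starts the chains, and *Chpf*, *Dse*, *Sulf1* and *Sulf2* in every set, beside 14.1%, 9.29% and 11.6% of all genes tested. *Sulf1*, which removes 6-O-sulfate from heparan sulfate outside the cell, held 132.6, 35.5 and 60.3 CPM in fibroblast-like cells against 8.28, 3.37 and 1.53 for epithelium-like cells. The sulfotransferase *Hs3st1* in set 3 was the single epithelium-higher enzyme, at 36.1 CPM against 5.02. Of all genes tested, 8.61%, 6.37% and 8.44% were epithelium-higher in sets 1 to 3. The list's median log2 ratio was 1.58, 1.07 and 1.20, beside 0.16, 0.03 and -0.19 over all genes. For glia-like over fibroblast-like cells it was -0.60, -0.11 and 0.20, beside 0.12, 0.11 and 0.35. Of 19, 15 and 17 enzymes tested between these classes, 1 in each set was at least 4-fold glia-higher, beside 3.54%, 3.61% and 5.27% of all genes. These were *Chst3* in set 1 and the 2-O-sulfotransferase *Hs2st1* in sets 2 and 3 (273.0 and 305.2 CPM against 60.4 and 47.8). *Hs3st1* and *Sulf1* in set 1, *Hs6st1* in set 2 and *Sulf1* in set 3 were fibroblast-higher, beside 3.46%, 2.09% and 2.35% of all genes. *Chst11* (12.7, 86.5 and 27.8 CPM in fibroblast-like cells) passed the line in no set.

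Cytoplasmic partners of the syndecans had a row for 4 of 6 genes, and all 4 were tested against epithelium-like cells. The adaptor *Gipc1* was epithelium-higher in each set, at 181.3, 84.2 and 47.7 CPM against 45.0, 14.8 and 10.0, and *Sdcbp2* in sets 1 and 3. Syntenin (*Sdcbp*) and *Cask*, a scaffold that binds syndecan tails, stayed under 4-fold, and the median log2 ratio was -0.69, -0.96 and -1.33, beside 0.16, 0.03 and -0.19 over all genes, of which 8.61%, 6.37% and 8.44% were epithelium-higher. Of the 3 tested between glia-like and fibroblast-like cells none was 4-fold apart, with medians of -0.35, 0.40 and 0.46 beside 0.12, 0.11 and 0.35 over all genes.

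**Figure D5:**
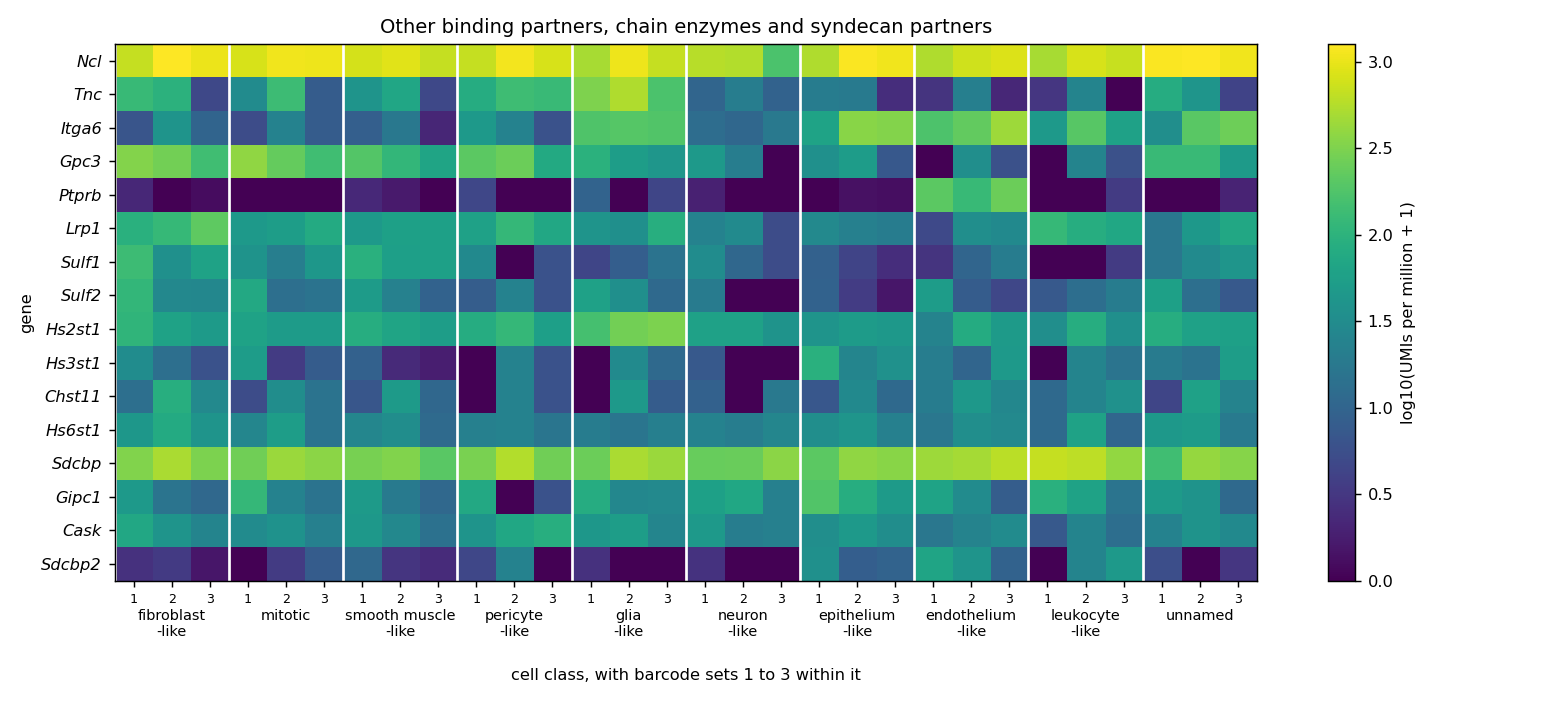
Rates of the other binding partners, chain enzymes and syndecan partners named in the text (rows) in each cell class and barcode set (columns), shown as color on a scale of log10(CPM + 1). *Gpc3*, *Lrp1*, *Sulf1* and *Sulf2* are stronger in fibroblast-like than in epithelium-like cells, *Gipc1* is stronger in epithelium-like cells, and *Ptprb* stands out in endothelium-like cells (209.0, 123.8 and 251.3 CPM).

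To describe which genes ran most like each member, log2(CPM + 10) was correlated over 26 points, each a cluster of at least 50 cells in 1 barcode set, among 3649 genes. Points of a set share a library and depth, and genes are not independent replicates. The closest to *Ptn* were *Dclk1* (Pearson's r = 0.928), *Fkbp7* (0.925), *Casc4* (0.921), the collagen *Col5a2* (0.918) and the collagen prolyl hydroxylase *P3h1* (0.915), while *Mdk* had r = 0.856 with *Ptn*. *Mdk* ran closest to *Gpc3* (0.959), *Mfap2* (0.948), *Maged2* (0.935), *Cdh11* (0.912) and *Podxl2* (0.904). Those of *Ptprz1* were *Gm12688* (0.989), *Slc35f1* (0.985) and the Schwann cell lineage genes *Fabp7* (0.985), *Cdh19* (0.980) and *Mag* (0.980). For *Ptprz1* only 2 of the 26 points were glia-like, those of sets 2 and 3, so these values mainly set 2 points against the rest, and *Fabp7* and *Cdh19* were among the markers that named the cluster. For *Sdc3* they were *Map4k4* (0.939), *Frmd4a* (0.880), *Vim* (0.877), *4921524J17Rik* (0.870) and *Fmnl2* (0.844). *Sdc4* had weaker neighbours, led by the tetraspanin *Cd9* (0.820), *Sox2* (0.757), *Lpcat2* (0.732), *Adgrg6* (0.730) and *Dbi* (0.724), and ran opposite to *Ptn* (-0.387) and *Mdk* (-0.526).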

How the data were processed

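Cells of 3 mouse tissues were profiled by droplet single cell RNA-seq, with 1 library each. The labels name v3 of the 3' reagent kit and the study's methods name v2. Per the submitters' processing notes, UMIs were counted with Cell Ranger 3.1.0 on mm10, and the methods add that droplets without a cell, multiplets and cells with a high mitochondrial share were removed. The values deposited by the authors, in a table named as counts, are on a natural log scale, with 1 added to each gene's UMIs per 10000 UMIs of its cell. UMIs and totals were recovered from them: all 11120281 values above 0 were whole within 0.05. Of 9784 rows, 1 partly empty row, at which the table ends, and 2 sharing a name were left out, and the rest hold 52.7%, 50.4% and 49.4% of the UMIs of sets 1 to 3. The design had foreseen counts, so summed recovered UMIs were used.

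Cells were integrated and clustered in Seurat 5.3.0 (R 4.3.3) with the 20 dimensions, 30 principal components and resolution 0.5 that the methods state for an older Seurat, on 2000 features chosen here without the 5 genes and *EGFP*. Markers counted for a cluster if seen in 10% or more of its cells and at 2 times or more the rate of the median cluster, and 3 were needed for a name. Scrublet (scanpy 1.11.5) called 3, 0 and 0 cells, and none was removed. Intervals are exact and cover counting error only. In ratios, sums of 0 to 2 UMIs were set to 3. Thinning to 900 UMIs left out 7, 342 and 693 cells. A cell count that the study states for E18.5 equals that of set 1, its other counts equal no set, and counts were not used as a key to the endings. With pooled columns no test across samples and no p-value was possible. The steps were tested on simulated data. Alternatives were another resolution, no integration, another denominator, a minimum of 1000 genes, removal by doublet score, cell-by-cell classes and thinning. The members, partner lists and the rule for naming genes (in each list the 6 with the highest rates in a class of at least 100 UMIs, and the 5 most correlated genes) were chosen with earlier results of these data known. Outside this rule, some partners and enzymes at least 4-fold apart between classes are named too. A promoter of *Mdk* was not used here.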

Additional observations from a re-analysis of the deposited data

Results flagged for a closer look

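Some ratios pointed in different directions in different barcode sets, with each interval on its own side of 0 unless stated, and none of these differences between sets was tested. *Sdc4* in glia-like cells was below epithelium-like, leukocyte-like and pericyte-like cells in set 1 and above them in sets 2 and 3. The log2 ratios were -2.87, 1.33 and 1.28 over epithelium-like cells, -2.10, 1.25 and 1.32 over leukocyte-like cells, and -1.44, 2.70 and 1.95 over pericyte-like cells. Set 1 rests on 41 *Sdc4* UMIs in 21 glia-like cells.

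The ratio of the *Tcf21* and *Col15a1* type over the *Dpt* and *Lum* type of fibroblast-like cells was 0.18, -1.23 and -0.63 for *Ptn* and 0.52, -0.27 and 0.33 for *Mdk*. For *Ptn* in set 1 the sign was lost when cells were thinned to 900 UMIs. *Ptn* in the mitotic cluster over fibroblast-like cells stood at -0.48, -0.39 and 0.24. *Ptn* in epithelium-like over endothelium-like cells stood at 0.55, -0.43 and -1.01, from 45, 92 and 130 endothelium-like UMIs. *Sdc4* in basal-type over other epithelium-like cells stood at -0.17, 0.19 and 0.08, with only 22 basal-type cells in set 1.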

How the results depend on the processing

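No paired analysis was possible because there was only 1 library per group and no column is tied to a sample. With 1 library per tissue there was no replicate to leave out. All values are log2 ratios unless given as percent. Of 136 recomputed ratios, 127 kept their direction and 87 moved by no more than the counting interval. All 21 ratios of each setting stayed within it at resolution 1.0 and with the UMIs of the rows at hand as denominator.

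Ratios between the *Tcf21* and *Col15a1* type and the *Dpt* and *Lum* type were the least stable. *Ptn* in set 3 turned to 0.30 with at least 1000 genes per cell, 0.13 with cells classed one by one and 0.34 without integration, where the former type had 35 cells. In set 2 it was -0.93, -0.60 and 1.25 in that order, and in set 1 it was 0.34 and 0.07 under the former settings and -0.04 when thinned, where set 3 was -0.72. *Mdk* in set 3 turned to -0.79 with at least 1000 genes and was 0.19 cell by cell. In set 2 it was -0.58 with at least 1000 genes and turned to 0.26 without integration. In set 1 it was 0.07 with at least 1000 genes, 0.15 cell by cell and 0.04 thinned.

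Fibroblast-like over epithelium-like ratios of *Ptn*, *Mdk* and *Sdc4*, the genes recomputed here, kept their direction under every setting that gave a value. With at least 1000 genes *Ptn* was 2.99 and 2.76 in sets 2 and 3, *Mdk* 2.82, 1.92 and 2.36 in sets 1 to 3, and *Sdc4* -2.70 and -0.35 in sets 1 and 3. Cell by cell *Ptn* was 4.25, 4.14 and 4.38, and *Mdk* 2.18 and 2.56 in sets 1 and 2. Thinned to 900 UMIs, *Ptn* was 4.15 and 4.04 in sets 1 and 3, *Mdk* 3.05, 2.43 and 3.98, and *Sdc4* -2.19 in set 1. Without the highest doublet scores *Ptn* was 5.33, 3.97 and 4.52 and *Mdk* 2.76, 2.44 and 4.43. Without integration *Ptn* was 3.45 and 3.95 in sets 2 and 3, and *Mdk* 4.06 in set 3.

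Glia-like over fibroblast-like, *Ptprz1* in set 1 was 8.29 cell by cell and 5.37 thinned, where the fibroblast-like sum was set to 3 UMIs. *Sdc3* was 0.60 (-0.00 to 1.17), -0.74 and 0.47 (-0.49 to 1.35) in sets 1 to 3 cell by cell, -0.16 without integration in set 2, and 2.24 and 2.33 in sets 1 and 3 thinned. Without integration the fibroblasts of set 1 formed an unnamed cluster, and with at least 1000 genes sets 2 and 3 had too few glia-like cells, so those ratios could not be given. The cause of these shifts was not tested.

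Shares of cells with a UMI changed with thinning, which also leaves out shallower cells. At 900 and then 1200 UMIs *Ptn* in fibroblast-like cells was 66.7% and 72.8% in set 1, 65.8% and 75.4% in set 2, and 51.7% at 900 in set 3. *Mdk* was 74.2% and 79.8%, 45.0% and 55.0%, and 33.5% and 41.8%. *Sdc4* in epithelium-like cells was 35.6% and 40.0%, 27.8% and 36.4%, and 32.2% and 40.1%. In glia-like cells *Ptprz1* was 28.6% and 33.3% in set 1, 13.5% at 1200 in set 2 and 15.6% at 900 in set 3, and *Sdc3* in set 1 was 19.1% and 0%. Few UMIs of *Ptprz1* outside glia-like cells, and of *Sdc3* in the small classes, limit what depth can show.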

Other observations

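The reporter row *EGFP* had UMIs in set 1 only: fibroblast-like cells held it at 1076 CPM and smooth muscle-like cells at 1702, against 32.4 in epithelium-like and 6.26 in leukocyte-like cells, while those classes were at 0 in sets 2 and 3. Among the fibroblast-like cells of set 1, *Ptn* stood at 2190 CPM (95% interval 2149 to 2233) in the 217 cells with an *EGFP* UMI and at 1754 (1701 to 1807) in the 157 without. *Mdk* differed less, at 1405 (1372 to 1439) against 1465 (1417 to 1514). *Sdc4* stood at 93.2 (84.8 to 102.2) against 76.5 (65.9 to 88.4) and *Sdc3* at 32.3 (27.4 to 37.7) against 25.6 (19.7 to 32.9), with overlapping intervals. The cells with an *EGFP* UMI were deeper, with a median of 16962 UMIs against 14495. *EGFP* was also among the 10 leading genes of a finer *Tcf21* and *Col15a1* type cluster. In set 1 that cluster had 243 cells and *Ptn* at 2178 CPM, beside 3051 and 1401 in the finer *Dpt* and *Lum* type clusters. The part of depth and of fibroblast type was not tested. This split was chosen after the table was seen.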
